A study of Bos taurus with 10 samples.

Results

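The genes described here are the inflammatory mediators IL1B, TNF, CXCL8 and PTGS2, measured in circulating white blood cells of Holstein heifers. They were taken by their Ensembl IDs, ENSBTAG00000001321 (IL1B), ENSBTAG00000025471 (TNF), ENSBTAG00000019716 (CXCL8) and ENSBTAG00000014127 (PTGS2), and are 4 of the 27570 gene IDs counted in each library. All 4 passed the filter on low counts, which 14165 IDs passed. The 10 heifers had never calved, and each had received a fresh IVF embryo (made by in vitro fertilisation). The diagnosis was made on day 21 after transfer, and 5 heifers were recorded as pregnant and 5 as non-pregnant. The non-pregnant heifers had thus received an embryo too, and no group without transfer was analysed here. The sources used here do not give the day of blood sampling, the heifers' age or blood cell counts. Every library is from 1 heifer, and heifers are numbered 1 to 5 within a group only to name them.

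Leukocytes switch these genes on together when they sense microbial products or tissue damage, and the NF-kappaB transcription factors drive all of them. IL1B encodes the precursor of interleukin-1 beta, which the inflammasome's caspase cleaves before release. TNF encodes tumour necrosis factor, a membrane-bound cytokine that is shed by the protease ADAM17. CXCL8 encodes interleukin-8, the chemokine that draws neutrophils out of the blood. PTGS2 encodes the inducible cyclooxygenase, which commits arachidonic acid to prostaglandins. Their messenger RNAs are short-lived in resting cells. In cattle, the early conceptus acts on maternal blood cells through interferon tau, and uterine prostaglandin ends the cycle when no conceptus signals.

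Totals ran from 14146666 to 22146290 counts per library, and each of the 4 genes had at least 40 counts in every heifer. Levels are given as CPM (counts scaled to a common library size) after TMM scaling of the library sizes, and are not corrected for gene length, so they compare heifers for 1 gene and not genes with each other. Some libraries stood apart over all other IDs. Pregnant heifer 5 and non-pregnant heifer 1 scored highest on the first principal component (24.7% of the variance), and pregnant heifer 2 and non-pregnant heifer 2 on the second (19.7%). In blood RNA of mixed leukocytes, fewer cells of a type and less RNA per cell cannot be told apart. Marker genes of the leukocyte types were not analysed here, since no table used here pairs the IDs with names.

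For none of the 4 genes did the pregnant and the non-pregnant group differ past the threshold. The comparison asks whether the levels of these mediators in circulating leukocytes differed by the recorded pregnancy status. As the day of blood sampling is not given, an effect of pregnancy and an earlier difference cannot be told apart. edgeR's quasi-likelihood test called 0 of 4 at an adjusted p of 0.05, beside 0% of all 14165 IDs tested, and each of the 4 had an adjusted p of 0.999. At an unadjusted p under 0.05 it gave 0 of 4, beside 5.05% of all IDs, and DESeq2 called 0 of the 3 it gave an adjusted p (none for IL1B), beside 5 of 21696 IDs, or 0.0230%. In none of the 4 were the groups apart in level, beside 0.953% of all IDs whose groups did not overlap. What set the genes apart from each other was the spread between heifers. CXCL8 ranged widely inside both groups, and TNF was close to even. IL1B ranged more widely among the non-pregnant heifers (SD of log2 CPM 1.69) than among the pregnant (0.68). PTGS2 ranged more widely among the pregnant heifers (0.80) than among the non-pregnant (0.23).

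**Figure D1:**
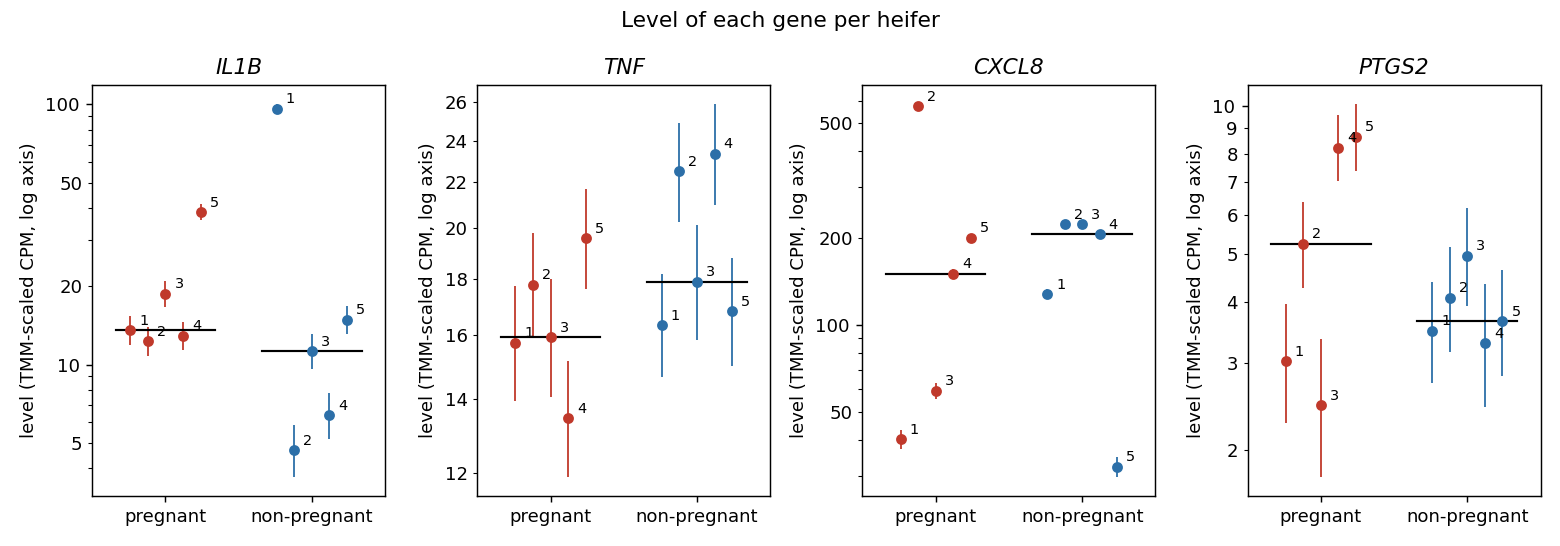
Level of IL1B, TNF, CXCL8 and PTGS2 in each heifer (TMM-scaled CPM, log axis, a different range in each panel), with pregnant heifers in red, non-pregnant in blue, the number of the heifer beside each point, and a black line at the group median. Bars are exact 95% Poisson intervals of the count and cover counting error only; IL1B reaches 96.5 CPM in non-pregnant heifer 1 and CXCL8 574.5 CPM in pregnant heifer 2, while TNF stays between 13.5 and 23.4 CPM.

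IL1B, the cytokine precursor, stood at 13.5, 12.3, 18.7, 12.9 and 38.6 CPM in pregnant heifers 1 to 5. It stood at 96.5, 4.68, 11.3, 6.38 and 14.9 CPM in non-pregnant heifers 1 to 5. The highest and the lowest heifer were both non-pregnant, and the 5 pregnant heifers all lay between them. Non-pregnant heifer 1 held 2019 counts (95% Poisson interval 1932 to 2109) and non-pregnant heifer 2 held 77 (60.8 to 96.2), a 20.6-fold range of level. Non-pregnant heifer 1 lay 6.49-fold above the next non-pregnant heifer, and pregnant heifer 5 lay 2.06-fold above the next pregnant heifer.

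The group means of IL1B were 19.2 ± 11.1 CPM in the pregnant group and 26.7 ± 39.2 CPM in the non-pregnant group (SD, n = 5 per group). The log2 fold change, pregnant over non-pregnant, was -0.48 (SE 0.84; edgeR adjusted p = 0.999), with a 95% interval from -2.39 to 1.42. This direction rested on 1 library. Without non-pregnant heifer 1, the log2 fold change was 1.05 (edgeR adjusted p = 0.645). On the log scale, where a single high value weighs less, the mean was 4.12 in the pregnant and 3.79 in the non-pregnant group, a difference of 0.33 log2 CPM in favour of the pregnant ones (exact two-sided permutation p = 0.690). The medians, 13.5 and 11.3 CPM, were also higher in the pregnant group. Leaving out non-pregnant heifer 1, 3 of the 4 remaining non-pregnant heifers lay below every pregnant heifer.

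TNF, the second cytokine, stood at 15.8, 17.8, 15.9, 13.5 and 19.6 CPM in pregnant heifers 1 to 5. It stood at 16.3, 22.5, 17.9, 23.4 and 16.8 CPM in non-pregnant heifers 1 to 5. Non-pregnant heifers 2 and 4 were above every pregnant heifer, pregnant heifers 1, 3 and 4 were below every non-pregnant heifer, and the other 5 animals overlapped. The mean was 16.5 ± 2.31 CPM in the pregnant group and 19.4 ± 3.30 CPM in the non-pregnant group (SD, n = 5 per group). The log2 fold change was -0.23 (SE 0.17; edgeR adjusted p = 0.999), and the exact two-sided permutation p was 0.151. The 95% interval of the ratio ran from 0.666 to 1.09, so these libraries bound the difference in TNF more closely than that of any other of the 4 genes. In RefSeq's gene table of the assembly ARS-UCD2.0, another annotated gene overlaps TNF. The sources used here do not give the strand setting of the counting, so reads of that gene could be among the TNF counts.

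CXCL8, the neutrophil chemokine, stood at 40.2, 574.5, 59.1, 150.7 and 200.5 CPM in pregnant heifers 1 to 5. It stood at 127.9, 223.6, 223.3, 206.7 and 32.3 CPM in non-pregnant heifers 1 to 5. Pregnant heifers 1 and 3 and non-pregnant heifer 5 were lowest, and the other 7 began 2.16-fold higher, with animals of both groups on either side. The widest gap over all 10 lay at the top: pregnant heifer 2, with 10952 counts, was 2.57-fold above the next heifer, non-pregnant heifer 2. It was 2.87-fold above the next pregnant heifer and was the only pregnant heifer above the range of the non-pregnant group. Non-pregnant heifer 5 was the only one below the range of the pregnant group. It lay 3.96-fold below its nearest neighbour in the non-pregnant group, whose other 4 members were within 127.9 to 223.6 CPM.

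Mean CXCL8 was 205.0 ± 216.8 CPM in the pregnant group and 162.8 ± 83.0 CPM in the non-pregnant group (SD, n = 5 per group). The log2 fold change was 0.33 (SE 0.77; edgeR adjusted p = 0.999), with a 95% interval from -1.41 to 2.08. The direction rested on pregnant heifer 2, and the log2 fold change was -0.54 without it (edgeR adjusted p = 0.887). Leaving out non-pregnant heifer 5 brought it to 0.071 (edgeR adjusted p = 0.997). The medians lay the other way from the means, at 150.7 CPM in the pregnant and 206.7 CPM in the non-pregnant group. The mean log2 levels were 7.05 and 7.06 (exact two-sided permutation p = 0.992).

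PTGS2, the inducible cyclooxygenase, was the least counted of the 4, with 40 to 165 counts per library. It stood at 3.02, 5.25, 2.46, 8.23 and 8.66 CPM in pregnant heifers 1 to 5. It stood at 3.49, 4.08, 4.96, 3.29 and 3.65 CPM in non-pregnant heifers 1 to 5. The non-pregnant heifers lay in a band of 1.51-fold, and no pregnant heifer fell inside that band: pregnant heifers 2, 4 and 5 were above it and pregnant heifers 1 and 3 below it. Counting error is wide at this depth. The 95% Poisson interval was 1.76 to 3.35 CPM for pregnant heifer 3 and 7.38 to 10.1 CPM for pregnant heifer 5, so these ends of the pregnant range did not meet. Pregnant heifer 2 (4.27 to 6.38 CPM) met non-pregnant heifer 3 (3.91 to 6.20 CPM). The intervals of pregnant heifer 1 (2.27 to 3.96 CPM) and pregnant heifer 3 (1.76 to 3.35 CPM) also met the band, which began at 3.29 CPM. The gap also depended on the scaling: with library totals alone, pregnant heifer 2 (2.21 log2 CPM) lay inside the band of the non-pregnant heifers (1.77 to 2.48).

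Mean PTGS2 was 5.53 ± 2.87 CPM in the pregnant group and 3.89 ± 0.662 CPM in the non-pregnant group (SD, n = 5 per group). The log2 fold change was 0.51 (SE 0.34; edgeR adjusted p = 0.999), with a 95% interval from -0.21 to 1.23, and the exact two-sided permutation p was 0.389. The SD of log2 CPM was 0.80 in the pregnant and 0.23 in the non-pregnant group. This difference in spread was noticed in the values and was not tested. The fold change kept its sign without any 1 heifer, between 0.29 without pregnant heifer 5 and 0.69 without pregnant heifer 3. The edgeR adjusted p was 0.998 and 0.958 at these ends.

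**Figure D2:**
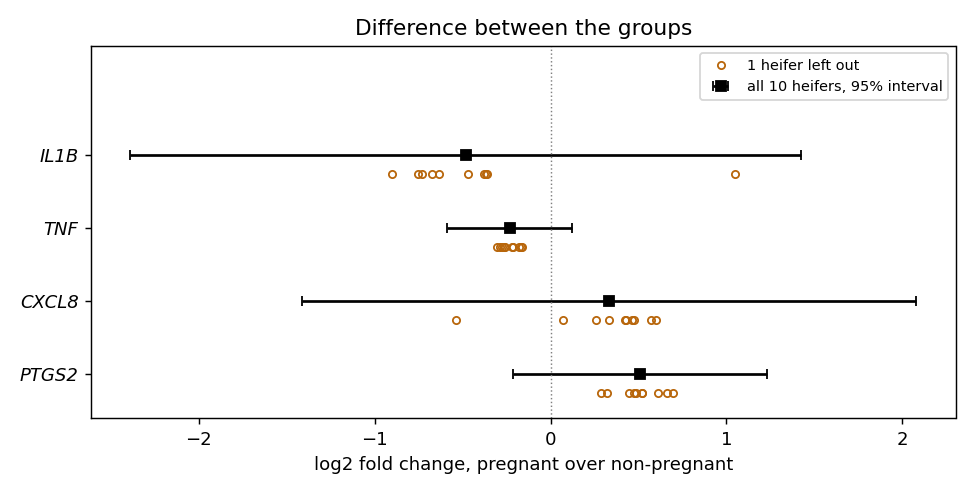
Log2 fold change of each gene, pregnant over non-pregnant, from edgeR (black squares, with 95% intervals) and the same value with 1 heifer left out at a time (open circles). All 4 intervals cross 0; IL1B moves to 1.05 without non-pregnant heifer 1 and CXCL8 to -0.54 without pregnant heifer 2, while TNF stays below 0 and PTGS2 above 0.

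The spread between heifers differed widely among the 4 genes. Over all 10 heifers the SD of log2 CPM was 1.28 for CXCL8 and 1.23 for IL1B, which ranked 177 and 206 from the top among the 14165 IDs tested. It was 0.58 for PTGS2, above 81.0% of all IDs, and 0.24 for TNF, below the median of all IDs (0.34) and above only 23.8% of them. edgeR's biological coefficient of variation, which takes out the counting error, also set IL1B and CXCL8 above the others: 86.4% for IL1B, 79.5% for CXCL8, 38.2% for PTGS2 and 20.9% for TNF, beside a median of 25.3%. Sampling of counts alone would have given a coefficient of variation of 1.74% for CXCL8, 4.77% for IL1B, 5.62% for TNF and 10.8% for PTGS2. The coefficients of variation of CPM between heifers were 85.0%, 119%, 17.2% and 45.5% in the same order. IL1B owed part of its rank to 1 animal, with an SD of 0.86 without non-pregnant heifer 1. That of CXCL8 stayed at 1.11 or more with any 1 heifer left out. The plot of spread over all IDs shows IL1B and CXCL8 in the thin upper tail and TNF at the bulk.

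**Figure D3:**
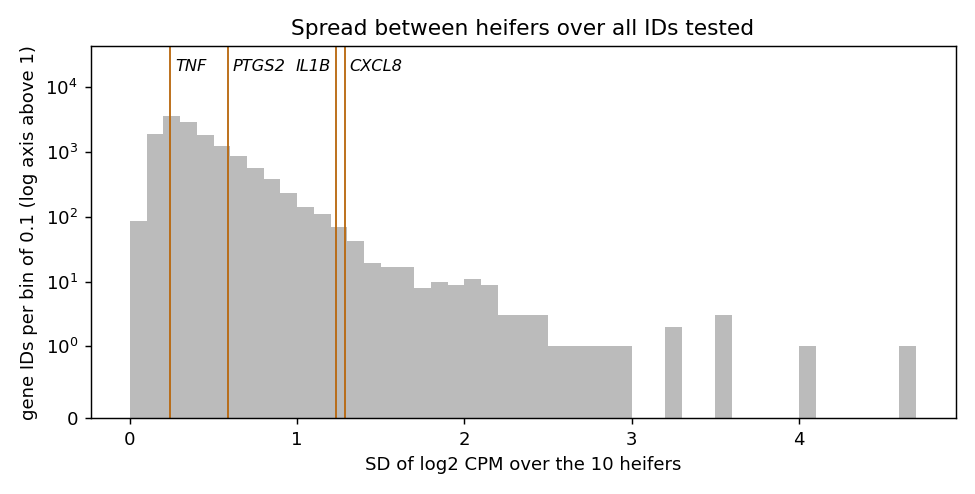
Number of gene IDs by the SD of their log2 CPM over the 10 heifers (grey bars, log axis above 1), with orange lines at the 4 genes. TNF (0.24) lies in the bulk, PTGS2 (0.58) on the shoulder, and IL1B (1.23) and CXCL8 (1.28) in the upper tail.

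No pair of the genes rose and fell together past the threshold over the 10 heifers. The lowest of the 6 adjusted permutation p-values was 0.457 for Pearson's r and 0.182 for Spearman's rho. By Pearson's r the closest positive pair was CXCL8 with PTGS2, at r = 0.51 (permutation p = 0.131, adjusted 0.457 over 6 pairs). Its Spearman's rho was 0.50 (permutation p = 0.146, adjusted 0.232), below the rho of 0.62 for TNF with CXCL8. For CXCL8 with PTGS2, r was 0.64 within the pregnant and 0.32 within the non-pregnant heifers, of 5 animals each and not tested. It was 0.43 without non-pregnant heifer 5 and pregnant heifer 1, the farthest from the median of CXCL8. In the pregnant group, heifers 2, 4 and 5 had the 3 highest levels of both genes and heifers 1 and 3 the lowest of both. In the non-pregnant group, heifer 5 had the lowest CXCL8 of all 10 and a middling PTGS2.

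TNF and CXCL8 had r = 0.42 (permutation p = 0.225, adjusted 0.457) and rho = 0.62 (permutation p = 0.0608, adjusted 0.182). Within groups r was 0.40 in the pregnant and 0.59 in the non-pregnant group, and it was 0.34 without non-pregnant heifers 4 and 2, the farthest from the median of TNF. With library totals alone in place of TMM scaling r was 0.14 (permutation p = 0.705, adjusted 0.846). TNF and PTGS2 had r = -0.11 (permutation p = 0.768, adjusted 0.804) and rho = 0.19 (permutation p = 0.607, adjusted 0.729), and r was 0.14 in the pregnant group, -0.15 in the non-pregnant group and 0.13 without the same pair of heifers. Pregnant heifer 4 shows the break most plainly, with the lowest TNF of all 10 heifers and the second highest PTGS2.

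IL1B and CXCL8 had r = -0.17 (permutation p = 0.652, adjusted 0.804) and rho = -0.65 (permutation p = 0.0492, adjusted 0.182), and r was 0.014 in the pregnant and -0.30 in the non-pregnant group. IL1B and TNF had r = -0.42 (permutation p = 0.229, adjusted 0.457) and rho = -0.49 (permutation p = 0.155, adjusted 0.232). Within groups their r was 0.67 in the pregnant and -0.80 in the non-pregnant group, a difference that was not tested. The rho within groups was 0.40 and -0.90 in the same order. Pregnant heifer 5 had the highest level of its group in both genes. IL1B and PTGS2 had r = 0.094 (permutation p = 0.804, adjusted 0.804) and rho = -0.091 (permutation p = 0.810, adjusted 0.810), and r was 0.32 in the pregnant and -0.25 in the non-pregnant group. Non-pregnant heifer 1 and pregnant heifer 5 lay farthest from the median of IL1B. Without them r was farther from 0 for CXCL8 and TNF: it was -0.50 with CXCL8 (exact permutation p = 0.212), -0.84 with TNF (exact permutation p = 0.0126, adjusted 0.0756) and -0.081 with PTGS2 (exact permutation p = 0.844). Non-pregnant heifers 2 and 4 had the lowest IL1B of all 10 animals and the highest TNF, and CXCL8 levels among the 4 highest. The balance between IL1B and CXCL8 inside a library thus moved more than either gene: the log2 ratio ran from -5.54 in non-pregnant heifer 2 to -0.41 in non-pregnant heifer 1, a 35.2-fold range.

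**Figure D4:**
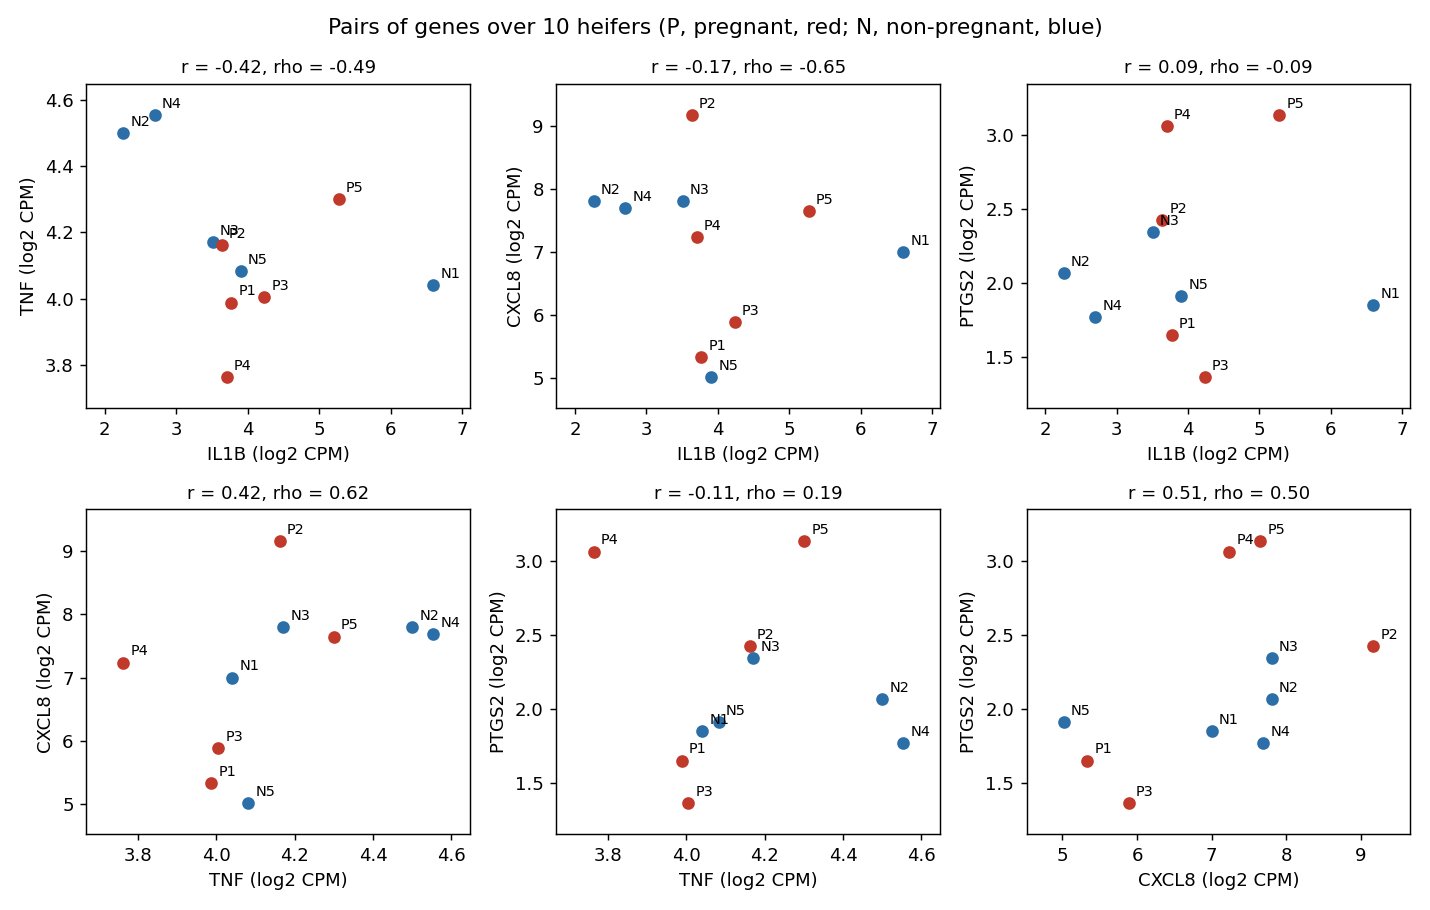
The 6 pairs of genes over the 10 heifers (both axes log2 CPM; P and red, pregnant; N and blue, non-pregnant; numbers as in the text), with Pearson's r and Spearman's rho above each panel. None of the 6 passes an adjusted p of 0.05; CXCL8 with PTGS2 is the highest at r = 0.51, and N1 and P5 stand to the right in each panel with IL1B on the x axis.

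The 4 genes were not among each other's closest patterns. For IL1B, 183 of the 14164 other IDs (1.29%) had an r above 0.8 over the 10 heifers and 126 (0.890%) an r below -0.8. For CXCL8 these were 97 (0.685%) and 69 (0.487%), for TNF 17 (0.120%) and 13 (0.0918%), and for PTGS2 16 (0.113%) and 26 (0.184%). CXCL8 was more like PTGS2 than 94.4% of the other IDs were (rank 790), and PTGS2 was more like CXCL8 than 88.0% were (rank 1700). CXCL8 was more like TNF than 88.7% were (rank 1607), and TNF more like CXCL8 than 82.5% (rank 2482). The pattern most like any of the 4 was that of ENSBTAG00000038042, with r = 0.98 and rho = 0.85 to IL1B over the 10 heifers, and 0.93 without pregnant heifer 5 and non-pregnant heifer 1. It ran from 1.10 to 53.6 CPM. The next was ENSBTAG00000050944, with r = 0.96 and rho = 0.95 to IL1B, and 0.83 without the same heifers. It ran from 0 to 358 counts, so its low end rests on few reads. The files pair neither ID with a name. These values are the highest of many and describe the libraries only.

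Some of the libraries that stood apart over all other IDs also held the extreme levels of IL1B and CXCL8. On the first component, computed without the 4 genes, pregnant heifer 5 scored 62.6 and non-pregnant heifer 1 scored 33.8, with the other 8 between -36.3 and 5.01. These were also the 2 heifers of highest IL1B, at 38.6 and 96.5 CPM. On the second component, pregnant heifer 2 scored 52.3 and non-pregnant heifer 2 scored 41.1, with the other 8 between -24.6 and 4.78. Pregnant heifer 2 had the highest CXCL8, at 574.5 CPM. Non-pregnant heifer 2, at 223.6 CPM, was level with non-pregnant heifer 3, at 223.3 CPM and a score of -21.7. The 3 heifers of low CXCL8 scored -10.9, -18.8 and -24.6. On TNF these 4 libraries ranked between 2 and 7 of 10, and on PTGS2, which was highest in pregnant heifer 5, between 1 and 7. What the components stand for, and their part in the levels of IL1B and CXCL8, was not tested.

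With the first 2 components as covariates, the edgeR log2 fold changes between pregnant and non-pregnant heifers were -0.46 for IL1B (adjusted p = 0.817), -0.24 for TNF (adjusted p = 0.598), -0.076 for CXCL8 (adjusted p = 0.983) and 0.29 for PTGS2 (adjusted p = 0.828). The log2 fold change of CXCL8 was thus near 0 with the components as covariates, and that of PTGS2 fell from 0.51 to 0.29. Those of IL1B and TNF were close to their values without them. Without covariates, the edgeR log2 fold change of CXCL8 was 0.33. By another measure, the mean log2 levels of CXCL8 in the groups differed by -0.009 without covariates. The edgeR log2 fold change of PTGS2 also came to 0.29 without pregnant heifer 5, which scored highest on the first component. Whether the components account for these shifts was not tested.

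**Figure D5:**
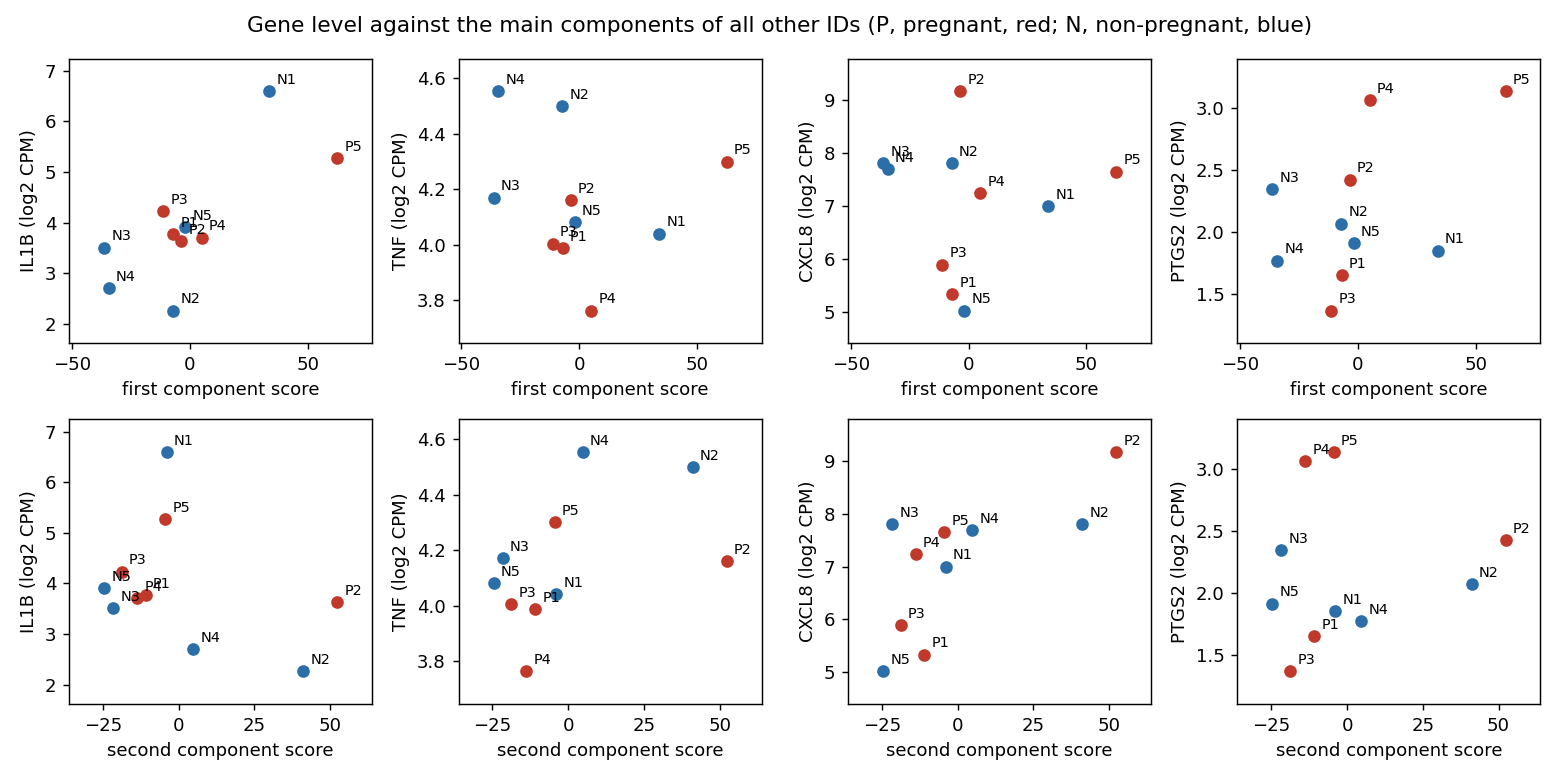
Level of each gene (log2 CPM) against the score of each heifer on the first (upper row) and second (lower row) principal component of all other IDs; P and red, pregnant; N and blue, non-pregnant. P5 and N1 stand at the right of the upper row with the 2 highest IL1B levels, and P2 and N2 at the right of the lower row, where P2 has the highest CXCL8 and N2 (223.6 CPM) is level with N3 (223.3 CPM, score -21.7).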

How the data were processed

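Libraries of total RNA from peripheral white blood cells of 5 pregnant and 5 non-pregnant heifers were compared. Per the submitters' processing notes, FastQC 0.11.7, Trim Galore 0.4.4, HISAT2, HTSeq and the build ARS-UCD1.2 were used, with annotation release, strand setting and counting mode not given in the sources used here. Raw counts were deposited per Ensembl gene ID, as read from the file headers. The names of the 4 IDs came with the choice of members. RefSeq's gene table (ARS-UCD2.0) holds the 4 symbols but matched 0 IDs, so the lists of pathway and marker genes and sequences were not used here. The table served only for symbols and, by its ARS-UCD2.0 coordinates, for which genes overlap. The members, lists and tests were chosen with earlier results of these data known.

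IDs were kept by filterByExpr (minimum count 10, minimum total 15), scaled by TMM and tested with edgeR's quasi-likelihood F test (edgeR 4.0.16, limma 3.58.1, R 4.3.3), robust dispersion, Benjamini-Hochberg adjustment over all 14165 IDs and a threshold of 0.05. The kept IDs held at least 99.8% of each library's counts. Group differences in mean log2 CPM had an exact two-sided permutation test (252 assignments), whose smallest p is 0.00794. Correlations used log2 CPM with a prior count of 2 and two-sided permutation tests of 100000 resamples. The scripts were tested on simulated data. Named IDs were the members and, as no symbols matched, the 2 IDs of highest r to any member. The lowest chi-square per degree of freedom between libraries of a group was 20.3, so none looked like a repeat run of another and all were kept. This check cannot show that libraries are from separate animals, which was taken as given. Alternatives were DESeq2 1.42.0, limma-voom with quality weights, other scalings, filters, dispersions and prior counts, components as covariates and leaving out each heifer. Poisson intervals cover counting error only.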

Additional observations from a re-analysis of the deposited data

Results flagged for a closer look

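The 8 sets of 5 levels (4 genes in 2 groups) were searched for a heifer far from the rest of its group. The search was made in CPM and on the log2 scale. In CPM 2 sets were marked, both for IL1B. The limit, a gap of 0.71 of the group's range, marks about 1 in 20 sets by chance where values are normally distributed. Whether levels in CPM are so distributed was not tested, so the marks are a description only. Non-pregnant heifer 1 stood at 96.5 CPM, with a gap to the next heifer of 0.889 of the group's range. Pregnant heifer 5 stood at 38.6 CPM, with a gap of 0.757 of the range. Neither was marked on the log2 scale, where the gaps were 0.621 and 0.635 of the range. On that scale CXCL8 in non-pregnant heifer 5 (32.3 CPM) passed the limit narrowly, at 0.711. The cause of these levels was not tested.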

How the results depend on the processing

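The count of 0 genes past an adjusted p of 0.05 was the same in 21 of 21 alternatives, of 4 genes or, under DESeq2, of 3. Over all IDs, DESeq2 called 5 of 21696 (0.0230%) and every other alternative called 0, so the count does not set these genes apart. In the alternatives the lowest adjusted p of any of the 4 was 0.532 (TNF under limma-voom with quality weights, log2 fold change -0.33, unadjusted p 0.0484). DESeq2 gave IL1B no p, as it does for a gene with an extreme count. TNF stayed negative (-0.36 to -0.16) and PTGS2 positive (0.25 to 0.69) in all 21. IL1B turned positive in 3: limma-voom with quality weights (0.23), without non-pregnant heifer 1 (1.05), and without that heifer and pregnant heifer 5 (0.62, chosen after seeing the data). CXCL8 turned negative in 4: limma-voom (-0.51), 2 components as covariates (-0.076), without pregnant heifer 2 (-0.54), and without pregnant heifer 2 and non-pregnant heifer 2 (-0.39, chosen after seeing the data). With 1 heifer left out, log2 fold changes ranged from -0.90 to 1.05 for IL1B, -0.30 to -0.16 for TNF, -0.54 to 0.60 for CXCL8 and 0.29 to 0.69 for PTGS2. The SD of log2 CPM ranged from 0.86 to 1.30 for IL1B in the same way. No correlation passed an adjusted p of 0.05 in 17 alternatives. With 1 heifer left out, r ranged from -0.56 to -0.23 for IL1B with TNF, -0.25 to -0.081 for IL1B with CXCL8, -0.17 to 0.36 for IL1B with PTGS2, 0.36 to 0.55 for TNF with CXCL8, -0.29 to 0.30 for TNF with PTGS2 and 0.43 to 0.58 for CXCL8 with PTGS2. With library totals alone, r fell to 0.14 for TNF with CXCL8 (from 0.42) and moved to -0.29 for TNF with PTGS2 (from -0.11). IL1B with PTGS2 also reversed without pregnant heifer 5 (-0.17) and without it and non-pregnant heifer 1 (-0.081), who are also the 2 farthest from the median of IL1B. IL1B with CXCL8 reversed without pregnant heifer 2 and non-pregnant heifer 2 (0.029). TNF with PTGS2 reversed with group means subtracted (0.052), without the 2 heifers farthest from the median of TNF (0.13), without pregnant heifer 4 (0.30) and without non-pregnant heifer 4 (0.035). Apart from changes that come with fewer samples, the cause was not tested. No paired analysis was possible because no label ties an animal of one group to one of the other. The SE of the log2 fold change was 0.84 for IL1B and 0.77 for CXCL8, beside a median of 0.21 over all IDs, and PTGS2 rests on 40 to 165 counts per library.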
